A study of Mus musculus with 25 samples.

Results

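The 33 genes described here are glycolysis and hypoxia genes: the glucose carriers and enzymes that turn glucose into pyruvate and lactate, and genes known to respond when oxygen is scarce. They were chosen by symbol, with earlier results of these data known. All 33 were found among the 38087 genes of each of 2 deposited mouse RNA sequencing tables. One table covers leukocytes sorted from injured muscle. The tibialis anterior of male C57BL/6J mice, 2 to 4 months old, was injected with cardiotoxin, a snake venom toxin that destroys muscle fibres. CD45+ cells gave 2 macrophage subsets, Ly6Chigh F4/80low and Ly6Clow F4/80high, each with 3 samples from day 2 and 2 from day 4, and Ly6Ghigh Ly6Cint F4/80- neutrophils, with 3 samples from day 1. The other covers bone marrow-derived macrophages (BMDM), grown from male C57BL/6J marrow with M-CSF and replated without it. Their donors carry the same age label of 2 to 4 months, while the protocol gives 8 to 10 weeks. They were left untreated (3 libraries) or exposed for 4 h to 10 nM RvD2 (3 libraries), which is resolvin D2, a signalling lipid derived from the omega-3 fatty acid DHA. The labels give no genetic change for any group, and no group of these tables came from uninjured muscle.

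Glycolysis splits glucose into pyruvate in the cytosol and yields ATP without oxygen, and the pyruvate can be turned into lactate and exported. The transcription factor HIF-1, whose oxygen-regulated subunit is encoded by Hif1a, switches on many genes of this pathway. When oxygen is present, prolyl hydroxylases of the EGLN family mark the HIF subunit for destruction by the VHL protein, and Egln3 is itself a HIF target. In macrophages a high glycolytic rate is known to accompany inflammatory activation, and neutrophils are known to rely on glycolysis for most of their ATP.

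HIF binds DNA at a short core, and ACGTG is a common form of it. Promoter windows of 300 bases, from 250 before to 50 after an annotated start, were taken from RefSeq (GRCm38.p6) for 31 of the 33 genes, with Ero1l listed there as Ero1a; Slc2a3 and Ndrg1 had none. The windows of 6 genes are printed, 5′ to 3′ on the gene's own strand, and each of them holds ACGTG on either strand. Ankrd37, Egln3, Slc2a1 and Ero1l were higher after RvD2 and lower over time in Ly6Chigh cells. Hk2 and Hif1a were so too, and their windows, which also hold ACGTG, are not printed. The other 2 printed windows belong to the lactate exporter Slc16a3 and the glycolytic enzyme Pgk1. Capitals mark ACGTG or its reverse complement CACGT. Ankrd37 lies on chromosome 8 at 45999801 to 46000100, minus strand, Egln3 on chromosome 12 at 54203825 to 54204124, minus strand, and Slc2a1 on chromosome 4 at 119108495 to 119108794, plus strand. Ero1l lies on chromosome 14 at 45318523 to 45318822, minus strand, Slc16a3 on chromosome 11 at 120948817 to 120949116, plus strand, and Pgk1 on chromosome X at 106186850 to 106187149, plus strand.
Ankrd37: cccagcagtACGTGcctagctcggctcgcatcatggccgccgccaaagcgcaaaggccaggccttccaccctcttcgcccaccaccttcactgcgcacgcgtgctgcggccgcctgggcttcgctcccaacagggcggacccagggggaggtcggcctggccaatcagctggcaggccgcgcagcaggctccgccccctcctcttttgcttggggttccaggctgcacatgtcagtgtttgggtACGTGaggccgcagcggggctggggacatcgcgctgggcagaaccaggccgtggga
Egln3: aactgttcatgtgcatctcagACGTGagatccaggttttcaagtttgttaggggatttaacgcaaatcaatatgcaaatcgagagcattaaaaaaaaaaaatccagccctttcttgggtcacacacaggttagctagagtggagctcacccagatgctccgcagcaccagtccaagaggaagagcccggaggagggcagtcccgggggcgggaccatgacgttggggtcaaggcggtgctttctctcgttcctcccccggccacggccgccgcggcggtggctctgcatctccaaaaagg
Slc2a1: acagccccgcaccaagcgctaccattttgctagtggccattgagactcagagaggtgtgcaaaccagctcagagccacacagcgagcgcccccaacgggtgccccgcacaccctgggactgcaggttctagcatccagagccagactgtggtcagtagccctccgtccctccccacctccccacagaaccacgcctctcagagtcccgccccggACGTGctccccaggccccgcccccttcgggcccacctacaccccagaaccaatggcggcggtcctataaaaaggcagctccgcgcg
Ero1l: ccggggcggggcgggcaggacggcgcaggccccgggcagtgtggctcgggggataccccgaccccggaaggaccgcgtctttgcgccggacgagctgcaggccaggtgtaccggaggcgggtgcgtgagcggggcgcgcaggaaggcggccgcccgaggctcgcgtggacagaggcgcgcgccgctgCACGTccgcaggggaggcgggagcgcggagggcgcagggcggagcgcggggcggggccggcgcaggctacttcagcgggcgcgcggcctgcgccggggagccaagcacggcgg
Slc16a3: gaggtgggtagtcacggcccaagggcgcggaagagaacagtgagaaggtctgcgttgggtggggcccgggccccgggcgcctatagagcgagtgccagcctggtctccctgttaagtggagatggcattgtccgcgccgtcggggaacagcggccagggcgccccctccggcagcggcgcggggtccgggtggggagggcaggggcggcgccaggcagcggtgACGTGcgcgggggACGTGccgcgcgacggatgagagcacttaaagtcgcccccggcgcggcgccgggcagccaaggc
Pgk1: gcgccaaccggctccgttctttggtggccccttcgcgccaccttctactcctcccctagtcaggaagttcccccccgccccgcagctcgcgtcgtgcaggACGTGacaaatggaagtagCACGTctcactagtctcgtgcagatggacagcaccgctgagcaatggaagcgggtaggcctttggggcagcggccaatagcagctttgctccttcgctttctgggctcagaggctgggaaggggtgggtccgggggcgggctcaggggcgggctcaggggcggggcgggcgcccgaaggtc
The letters ACGTG, read on either strand, stood in 25 of the 41 windows of these genes (61.0%), belonging to 23 of 31 genes. Among all 32851 windows of the same length 19.6% held them. The windows of these genes were rich in G and C, with a median of 65.0% against 52.7% over all windows, and among all windows between the lower and upper quartile of that GC content the share was 26.0%. Pgk1, Slc16a3 and Ankrd37 carried 2 matches each within the printed windows. No match was found in the windows of Tpi1, which interconverts the triose phosphates, or Gpi1, which makes fructose 6-phosphate. The windows of Pfkl, Pfkp, Pfkfb4, Eno1, Pdk1 and Adm held none either. A wider search that also took GCGTG found a match in 85.4% of the windows of these genes and 43.8% of all. Among the windows in that same range of GC content the share was 63.5%. ACGTG also lies inside CACGTG, the site of E-box factors such as MYC, and a match is a description of the letters, not of binding.

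The muscle values are the authors' means over the samples of each group, so no error, test or sample spread stands behind a muscle difference. In sorted bulk samples, fewer cells of one type and less RNA per cell cannot be told apart. The neutrophil column added up to 26.0 M (mega) normalised counts, while the macrophage columns added up to between 11.9 and 12.8 M, and the BMDM libraries had estimated depths of 9.05 to 14.3 M gene reads. The macrophage markers summed to 181974 to 301394 normalised counts in the macrophage groups against 41419 in neutrophils, and the 7 neutrophil markers to 343547 in neutrophils against 2214 to 2998, with Ly6g listed at 0 in all 4 macrophage groups. The 7 fibroblast markers summed to 244 in Ly6Chigh cells at day 2 and 23710 at day 4, and to 79.7 and 1708 in Ly6Clow cells, with Lum listed at 0 in Ly6Clow cells at day 2. In Ly6Chigh cells at day 4 the 6 T and NK cell markers also summed to 750 and the 5 dendritic cell markers to 1308, against 18.3 and 102 at day 2. The 4 endothelial markers summed to 450 and 997 in Ly6Chigh cells at day 2 and 4, and to 235 and 272 in Ly6Clow cells. The 9 skeletal muscle markers summed to 262 and 779 in Ly6Chigh cells at day 2 and 4, and to 316 and 1403 in Ly6Clow cells. The part of these cells in the day 4 values was not tested.

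The whole set of 33 genes took 0.871% of all normalised counts in Ly6Chigh macrophages at day 2 and 0.698% in Ly6Clow macrophages at day 2. By day 4 the shares were 0.406% and 0.363%. Ly6Chigh cells at day 2 were the highest of the 4 macrophage groups for 23 of the 31 genes that reached 50 normalised counts in any of them (74.2%), whereas 28.3% of all 12047 genes at that level peaked there. A muscle gene is called below when its log2 ratio, taken after adding 10 to each normalised count, is at least 1 in size (2-fold) and the higher group has 50 or more. Levels are deposited group means of log2 normalised counts.

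**Figure D1:**
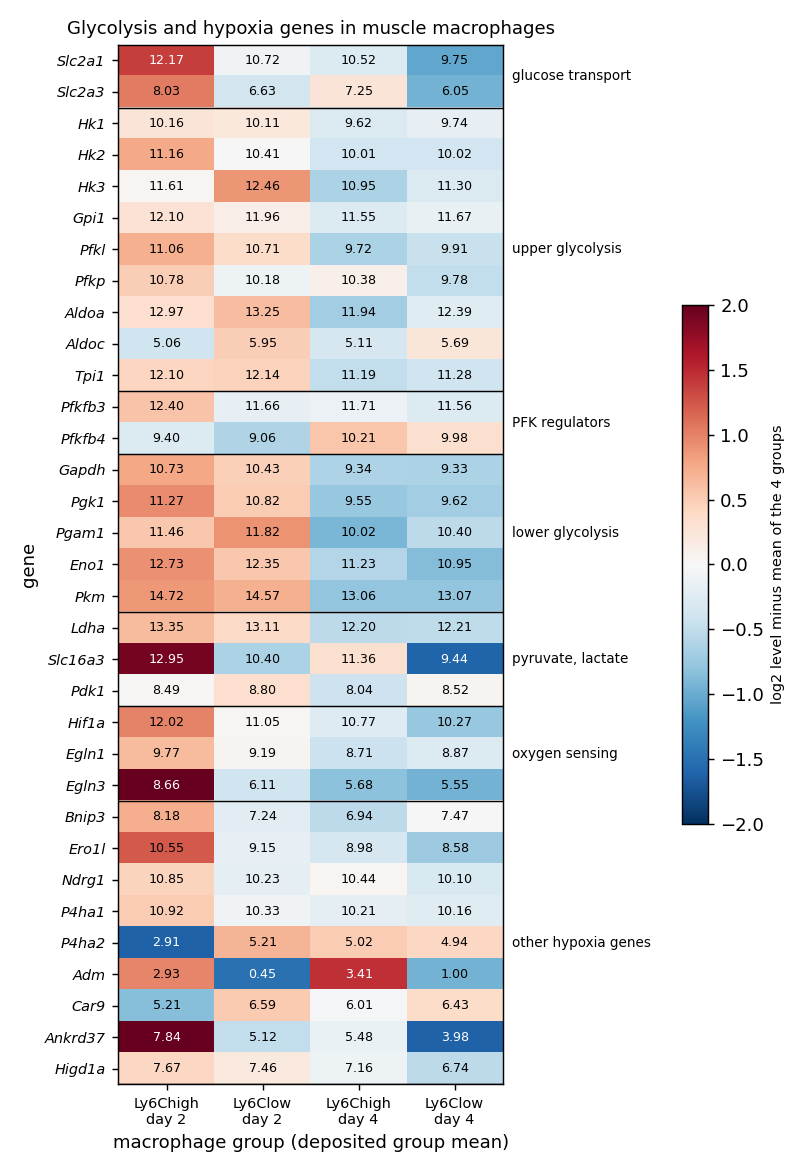
Deposited group means (log2 normalised counts, printed in the cells) of the 33 genes in the 4 macrophage groups, with colour showing the distance from each gene's mean over the 4 groups. Ly6Chigh cells at day 2 hold the highest value for most rows, and the column for Ly6Clow cells at day 4 holds none of the highest values.

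In Ly6Chigh macrophages, 17 of 30 genes with enough signal were called lower at day 4 than at day 2 and 0 were called higher, where 3.74% of all 11618 genes were called lower and 9.67% higher. The median log2 ratio over the 30 was -1.09, against -0.01 over all genes. In Ly6Clow macrophages, 6 of 30 were called lower and 0 higher, against backgrounds of 3.24% and 8.08% of 11560 genes, with a median of -0.54. In each subset 28 of the 30 ratios were below 0. In both subsets 5 genes were called lower, which is 29.4% of the Ly6Chigh list and 83.3% of the Ly6Clow list.

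Between the subsets, at day 2, 6 of 31 genes were called lower in Ly6Clow than in Ly6Chigh cells and 1 higher, where 5.46% and 5.9% of 11275 genes were called. The median log2 ratio over the genes was -0.37. At day 4, 2 of 30 were called lower and 0 higher, against 4.22% and 2.98% of 11764 genes, and the median was 0.01, the same as over all genes. The 2 subset comparisons and the 2 time comparisons use the same 4 groups, so a high value in Ly6Chigh cells at day 2 enters 2 of them.

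**Figure D2:**
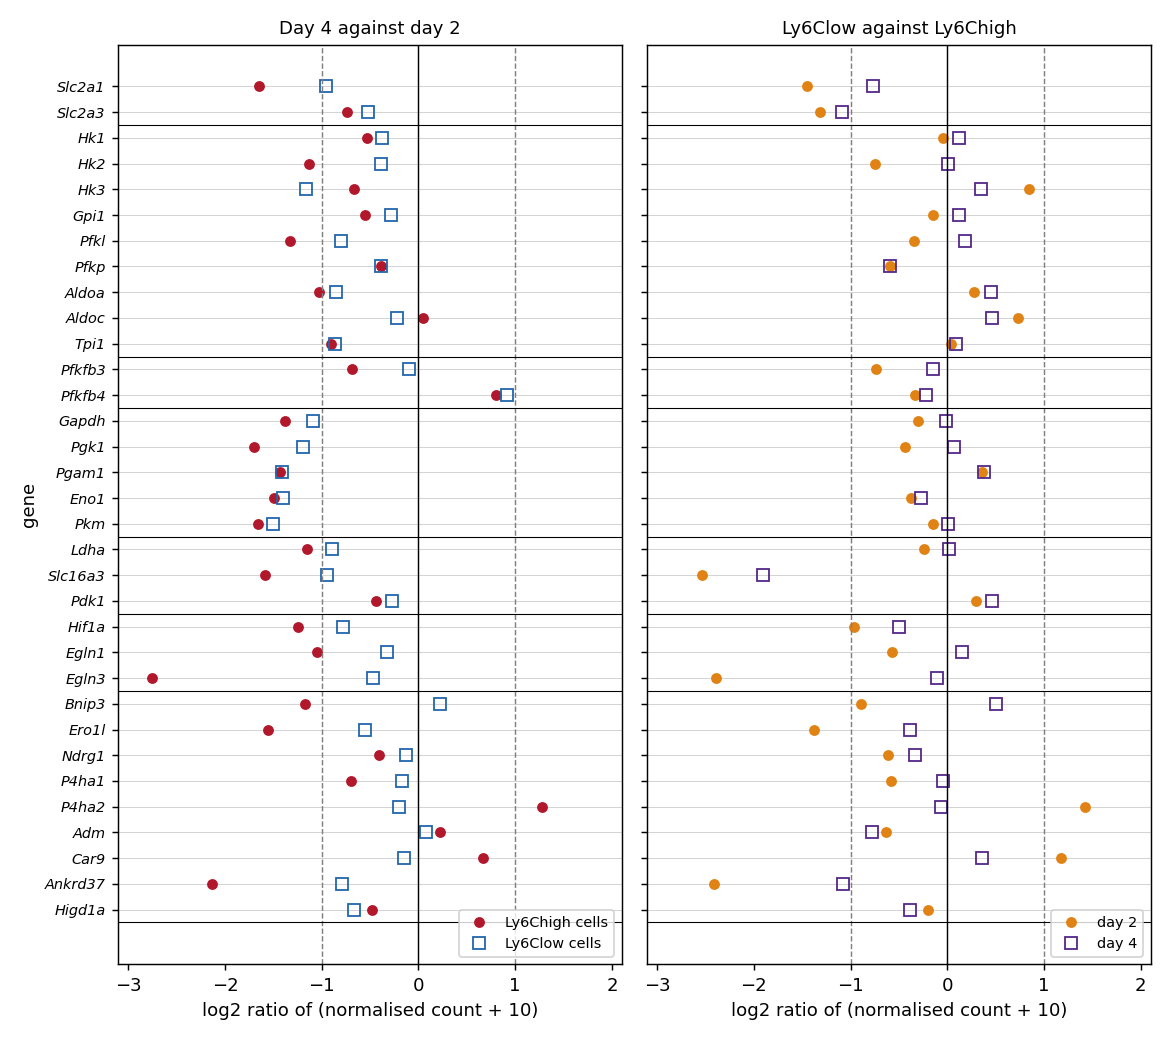
Log2 ratio of (normalised count + 10) for each of the 33 genes, day 4 against day 2 on the left (filled circles Ly6Chigh, open squares Ly6Clow) and Ly6Clow against Ly6Chigh on the right (filled circles day 2, open squares day 4), with dashed lines at 2-fold. The lower glycolysis enzymes lie left of the dashed line in both subsets on the left and inside the dashed lines on the right, while Slc16a3 lies left of it on the right on both days.

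Glucose carriers separated the subsets. Slc2a1, the main glucose carrier GLUT1, stood at 12.17 in Ly6Chigh cells and 10.72 in Ly6Clow cells at day 2, and at 10.52 and 9.75 at day 4. Its log2 ratio between the subsets was -1.45 at day 2 (called) and -0.76 at day 4, and its ratio over time was -1.64 in Ly6Chigh cells (called) and -0.96 in Ly6Clow cells. Slc2a3, the high-affinity carrier GLUT3, stood at 8.03 and 6.63 in Ly6Chigh and Ly6Clow cells at day 2 and at 7.25 and 6.05 at day 4, and it was called lower in Ly6Clow cells on both days, by -1.32 and -1.09. The day 4 call is lost when 50 is added in place of 10 (-0.80) or when the higher group must have 200. Both carriers had their lowest value in Ly6Clow cells at day 4.

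Of the 9 upper glycolysis genes none was called between the subsets on either day. Hk2, the hexokinase known to be induced by hypoxia, stood at 11.16 in Ly6Chigh cells at day 2 and at 10.01 at day 4 (-1.14, called), and at 10.41 and 10.02 in Ly6Clow cells. Hk3, the hexokinase of myeloid cells, moved the other way between subsets: it was 11.61 in Ly6Chigh and 12.46 in Ly6Clow cells at day 2, and 10.95 and 11.30 at day 4. Its ratio over time was called in Ly6Clow cells (-1.16) and was -0.66 in Ly6Chigh cells. Pfkl, the liver-type phosphofructokinase that commits sugar to glycolysis, went from 11.06 to 9.72 in Ly6Chigh cells (-1.33, called) and from 10.71 to 9.91 in Ly6Clow cells. Aldoa, the aldolase that splits the 6-carbon sugar, went from 12.97 to 11.94 in Ly6Chigh cells (-1.03, called, but -0.95 with all columns rescaled to equal totals) and from 13.25 to 12.39 in Ly6Clow cells. Hk1, Gpi1, Pfkp (platelet-type phosphofructokinase) and Tpi1 had time ratios between -0.28 and -0.91 and were not called, and Aldoc, a second aldolase, stood between 5.06 and 5.95.

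Pfkfb3 and Pfkfb4 make and remove fructose 2,6-bisphosphate, the activator of phosphofructokinase, and they parted over time. Pfkfb4 was higher at day 4 in both subsets, by 0.81 in Ly6Chigh cells (9.40 to 10.21) and by 0.91 in Ly6Clow cells (9.06 to 9.98), short of the 2-fold threshold. Pfkfb3 stood at 12.40 and 11.71 in Ly6Chigh cells and at 11.66 and 11.56 in Ly6Clow cells.

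All 5 lower glycolysis genes, from glyceraldehyde phosphate to pyruvate, were called lower at day 4 in both subsets, and none was called between the subsets on either day. Pkm, pyruvate kinase, went from 14.72 to 13.06 in Ly6Chigh cells (-1.66) and from 14.57 to 13.07 in Ly6Clow cells (-1.51). Pgk1, the first ATP-forming enzyme, went from 11.27 to 9.55 (-1.70) and from 10.82 to 9.62 (-1.19). Eno1, enolase, went from 12.73 to 11.23 (-1.50) and from 12.35 to 10.95 (-1.40). The subset ratios of these 3 genes lay between -0.44 and 0.07. Pgam1, phosphoglycerate mutase, went from 11.46 to 10.02 (-1.43) and from 11.82 to 10.40 (-1.41), and Gapdh from 10.73 to 9.34 (-1.38) and from 10.43 to 9.33 (-1.09). Pgam1 was higher in Ly6Clow than in Ly6Chigh cells on both days, with subset ratios of 0.36 and 0.38, and Gapdh had ratios of -0.30 and -0.01.

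Several of these enzymes have near-identical copies elsewhere in the genome, so their reads can be split between genes. Gapdh shared stretches of at least 98% identity with 41 other genes, and the 30 of them in the table held 22530 normalised counts in Ly6Chigh cells at day 2 against 1704 for Gapdh itself. For Eno1 2 such genes held 12837 against 6778, for Pgk1 2 held 6195 against 2462, and for Pgam1 1 held 2732 against 2821. With the copies added to each gene, an alternative chosen after seeing the data, the ratios over time in Ly6Chigh cells became -1.27 for Gapdh, -1.51 for Eno1, -1.72 for Pgk1 and -1.44 for Pgam1. In Ly6Clow cells they became -1.13, -1.38, -1.15 and -1.40 in the same order. Pkm shared 65.5% of its transcript with 1 other gene that is not among the deposited genes, so nothing could be added for it. Outside lower glycolysis, 1 copy of Gpi1 held 2966 against 4397, 1 of Higd1a 255 against 204 and 1 of Bnip3 101 against 290. With copies added, their time ratios in Ly6Chigh and Ly6Clow cells were -0.52 and -0.29, -0.75 and -0.85, and -1.08 and 0.30. Levels of these genes are not compared with those of other genes.

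Slc16a3 encodes MCT4, the carrier that exports lactate from glycolytic cells, and it had the lowest subset ratio of the 33 genes on both days. It stood at 12.95 in Ly6Chigh and 10.40 in Ly6Clow cells at day 2, a ratio of -2.54 or 5.81-fold lower in Ly6Clow cells, and at 11.36 and 9.44 at day 4, a ratio of -1.90 or 3.74-fold lower. Over time it was called lower in Ly6Chigh cells (-1.58) and was -0.95 in Ly6Clow cells. The 7 neutrophil markers, whose cells hold far more Slc16a3, summed to 2214 in Ly6Chigh and 2665 in Ly6Clow cells at day 2, and to 2998 and 2636 at day 4. Their part in the Slc16a3 ratios was not tested. Ldha, which makes lactate from pyruvate, went from 13.35 to 12.20 in Ly6Chigh cells (-1.15, called) and from 13.11 to 12.21 in Ly6Clow cells (-0.89), and its subset ratios were -0.25 and 0.01. Pdk1, the kinase that blocks pyruvate entry into mitochondria, was between 8.04 and 8.80 and was not called.

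All 3 members grouped as oxygen sensing genes were called lower over time in Ly6Chigh cells and none in Ly6Clow cells. That the subsets differ in this was not tested. Among the HIF regulators outside the 33, such as Egln2 and Vhl, 0 of 13 with enough signal were called over time in either subset. Their median log2 ratios were -0.12 in Ly6Chigh and -0.01 in Ly6Clow cells. Egln3 stood at 8.66 in Ly6Chigh cells at day 2 and between 5.55 and 6.11 in the other 3 groups. Its log2 ratio was -2.76 over time in Ly6Chigh cells, the lowest ratio of the 33 genes, and -2.39 between subsets at day 2, while at day 4 the subset ratio was -0.11. Egln1, the main HIF prolyl hydroxylase, went from 9.77 to 8.71 in Ly6Chigh cells (-1.05) and from 9.19 to 8.87 in Ly6Clow cells. Its call is lost with equal totals (-0.97) and with 50 added (-0.98), which leaves Egln3 and Hif1a called. Hif1a went from 12.02 to 10.77 (-1.24) and from 11.05 to 10.27 (-0.78), with subset ratios of -0.96 and -0.50.

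Among the other hypoxia genes, Ankrd37, an ankyrin repeat gene known as a HIF target, was also highest in Ly6Chigh cells at day 2. It stood at 7.84 in Ly6Chigh cells at day 2, 5.48 at day 4, and 5.12 and 3.98 in Ly6Clow cells, with a subset ratio of -2.42 at day 2 and a time ratio of -2.13 in Ly6Chigh cells, both called. At day 4 its level was too low for a call between the subsets. Its exons overlap those of Lrp2bp and Ufsp2 over 26.4% of the Ankrd37 exon length, and the library kit as described marks no strand. Lrp2bp stood at 5.19, 2.61, 2.16 and 0.97 in Ly6Chigh cells at day 2 and 4 and Ly6Clow cells at day 2 and 4, and Ufsp2 between 8.55 and 8.98. Ero1l, an oxidase of protein folding in the endoplasmic reticulum, went from 10.55 to 8.98 in Ly6Chigh cells (-1.55, called) and stood at 9.15 and 8.58 in Ly6Clow cells, with a called subset ratio of -1.38 at day 2. Bnip3, which directs the removal of mitochondria, went from 8.18 to 6.94 in Ly6Chigh cells (-1.18, called, but -0.98 with 50 added) and from 7.24 to 7.47 in Ly6Clow cells.

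Car9, the carbonic anhydrase IX gene, stood at 5.21 in Ly6Chigh and 6.59 in Ly6Clow cells at day 2, the only gene of the 33 called higher in Ly6Clow cells (1.18), and at 6.01 and 6.43 at day 4. That call is lost when 50 is added in place of 10 or when the higher group must have 200. Of the 31 genes with enough signal 7 had a ratio above 0 in this comparison, among them Hk3 (0.85), Aldoc (0.73) and Pgam1. P4ha2, a collagen prolyl hydroxylase subunit, and Adm, which encodes the vasodilator peptide adrenomedullin, were under the level needed for a call in every macrophage group, at 2.91 to 5.21 and 0.45 to 3.41. Ndrg1, a stress response gene, P4ha1, the main collagen prolyl hydroxylase subunit, and Higd1a, a small mitochondrial protein gene, were not called in any of the 4 comparisons, with ratios over time between -0.13 and -0.70.

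Other genes of the pathway were looked at through lists of further glycolysis, pentose phosphate, pyruvate entry, glycogen, HIF regulator and hypoxia genes. At day 2, Ly6Clow cells had 12 of 93 called higher and 4 called lower, against 5.9% and 5.46% of all genes. The largest ratios were those of Epas1, which encodes HIF-2alpha (2.43), Angptl4, a lipase inhibitor (1.95), and Tfrc, the transferrin receptor (1.82). Vegfb (1.60), the repressor gene Bhlhe41 (1.53) and the sugar carrier gene Slc2a8 (1.47) followed. At day 4, 6 of 96 were called higher and 1 lower, against 2.98% and 4.22% of all genes. Among them were Lox, the collagen cross-linking enzyme (-2.80), the lipid droplet gene Hilpda (1.60) and Gyg, the glycogen primer (1.56). The creatine carrier Slc6a8 (1.49), Epas1 (1.32) and Vegfb (1.27) were also called. Over time in Ly6Chigh cells 5 of 94 were called higher and 8 lower, against 9.67% and 3.74% of all genes. The largest ratios were those of Lox (4.21), Ppfia4 (2.39), Pdk2, a kinase of the same family as Pdk1 (1.99), Hilpda (-1.92), Angptl4 (1.92) and Anxa2 (-1.67). The high Lox value falls in the group where the fibroblast markers summed to 23710. Over time in Ly6Clow cells the counts were 6 higher and 4 lower of 95, against 8.08% and 3.24% of all genes. Largest here were Ppfia4 (2.77), Pgam2, the muscle phosphoglycerate mutase (1.99), Pdk2 (1.52), Anxa2 (-1.38), Ccng2 (1.21) and Plin2 (-1.20). All 6 skeletal muscle markers with enough signal were also called higher in this comparison (median log2 ratio 2.57), as were 2 of 3 over time in Ly6Chigh cells, and their part in these values was not tested. Vegfa, the angiogenic HIF target, stood at 12.53 and 11.30 in Ly6Chigh cells at day 2 and 4 (-1.22, called) and at 11.76 and 10.95 in Ly6Clow cells (-0.81).

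None of the 32 respiratory chain genes was called in the 4 macrophage comparisons, with medians of 0.21 and 0.15 between subsets and -0.40 and -0.39 over time in Ly6Chigh and Ly6Clow cells. Of the 8 pentose phosphate genes with enough signal in Ly6Chigh cells 0 were called over time.

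In day 1 neutrophils the carriers stood far above the mean of the 4 macrophage groups. Slc2a3 was at 13.79, a log2 ratio of 6.69 or 103-fold, and Slc16a3 at 15.63, a ratio of 4.59 or 24.1-fold. Because the neutrophil column sums to 26.0 M normalised counts, rescaling every column to an equal total lowers all neutrophil ratios and moves the median over all genes from 0.10 to -1.02. Under equal totals Slc2a3 was 49.9-fold and Slc16a3 11.5-fold higher. As deposited 14 of 30 genes were called higher and 1 lower, where 30.7% and 28.9% of 12084 genes were called. With equal totals 7 of 31 were called higher and 9 lower, where 14% and 50.4% of 11998 genes were called.

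The 7 called higher under both scalings, as deposited and then with equal totals, were Slc2a3, Slc16a3, Egln3 (3.18 and 2.16), Ankrd37 (3.03 and 2.04), Slc2a1 (2.53 and 1.47), Ero1l (2.22 and 1.17) and Hk3 (2.11 and 1.05). Car9 was lower under both (-2.67 and -3.03), at a level of 1.13. Hif1a (1.56), Pkm (1.47), Pfkp (1.44), Hk1 (1.32), Gapdh (1.31), Bnip3 (1.08) and Pfkfb4 (1.91) were called higher as deposited and had ratios of 0.06 to 0.85 with equal totals. Gapdh had a ratio of 0.14 as deposited once its copies were added. Ndrg1 had ratios of -0.03 and -1.08. For Hk2, Gpi1, Tpi1, Ldha, Pdk1, Egln1 and Higd1a the ratios as deposited lay between -0.20 and -0.67, and with equal totals between -1.25 and -1.69. These 8 genes and Car9 are the 9 called lower with equal totals. The neutrophils were taken at day 1 and the macrophages later, so cell type and time cannot be told apart. Of the other pathway genes 30 of 96 were called higher and 30 lower as deposited, near the 30.7% and 28.9% of all genes. The largest ratios were those of the glycogen-targeting subunit genes Ppp1r3b (5.19) and Ppp1r3d (4.51) and the sugar carrier Slc2a6 (4.96). Selenbp1 (-3.94), Pdp2 (-3.35) and Slc2a8 (-3.32) were the lowest, and Vegfa was at 14.29 (2.65). Of the 32 respiratory chain genes 17 were called lower and 0 higher as deposited. Values of these other genes are given for the deposited scaling alone.

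**Figure D3:**
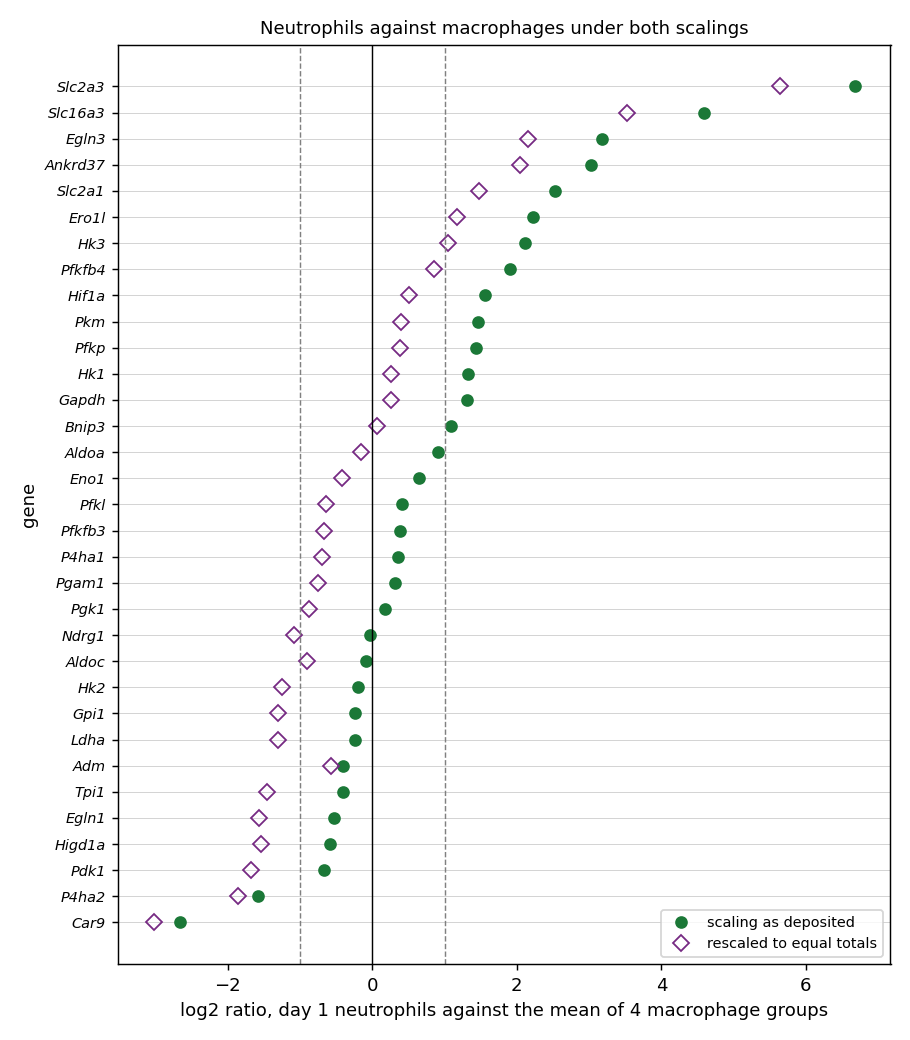
Log2 ratio of day 1 neutrophils to the mean of the 4 macrophage groups for each of the 33 genes, with the scaling as deposited (filled circles) and after rescaling each column to an equal total (open diamonds), and dashed lines at 2-fold. Slc2a3 at 6.69 and 5.64 and Slc16a3 at 4.59 and 3.53 lie beyond 2-fold under both, while many genes near 0 as deposited lie left of it after rescaling.

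Families of related enzymes also changed in make-up, which is a comparison of transcript levels per kilobase of exon within a column. A column is a single library for BMDM but a group mean of log2 values for muscle, where no share per sample exists. Such shares do not depend on the scaling between columns. Slc2a3 made up 40.0% of the 2 glucose carriers in neutrophils and 2.7 to 4.8% in the macrophage groups. Hk3 made up 88.2% of the 3 hexokinases in neutrophils, and Hk2 made up 28.0% in Ly6Chigh and 12.0% in Ly6Clow cells at day 2, and 21.6% and 18.2% at day 4. Egln3 made up 76.5% of the pair Egln1 and Egln3 in neutrophils, 38.5% in Ly6Chigh cells at day 2 and 12.0 to 14.2% in the other 3 macrophage groups. Pfkfb4 made up 16.2% and 20.3% of the Pfkfb pair in Ly6Chigh and Ly6Clow cells at day 2, 35.4% and 34.2% at day 4 and 49.9% in neutrophils. P4ha2 made up 0.1 to 1.9% of the P4ha pair in muscle cells and 18.4 to 23.2% in BMDM.

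**Figure D4:**
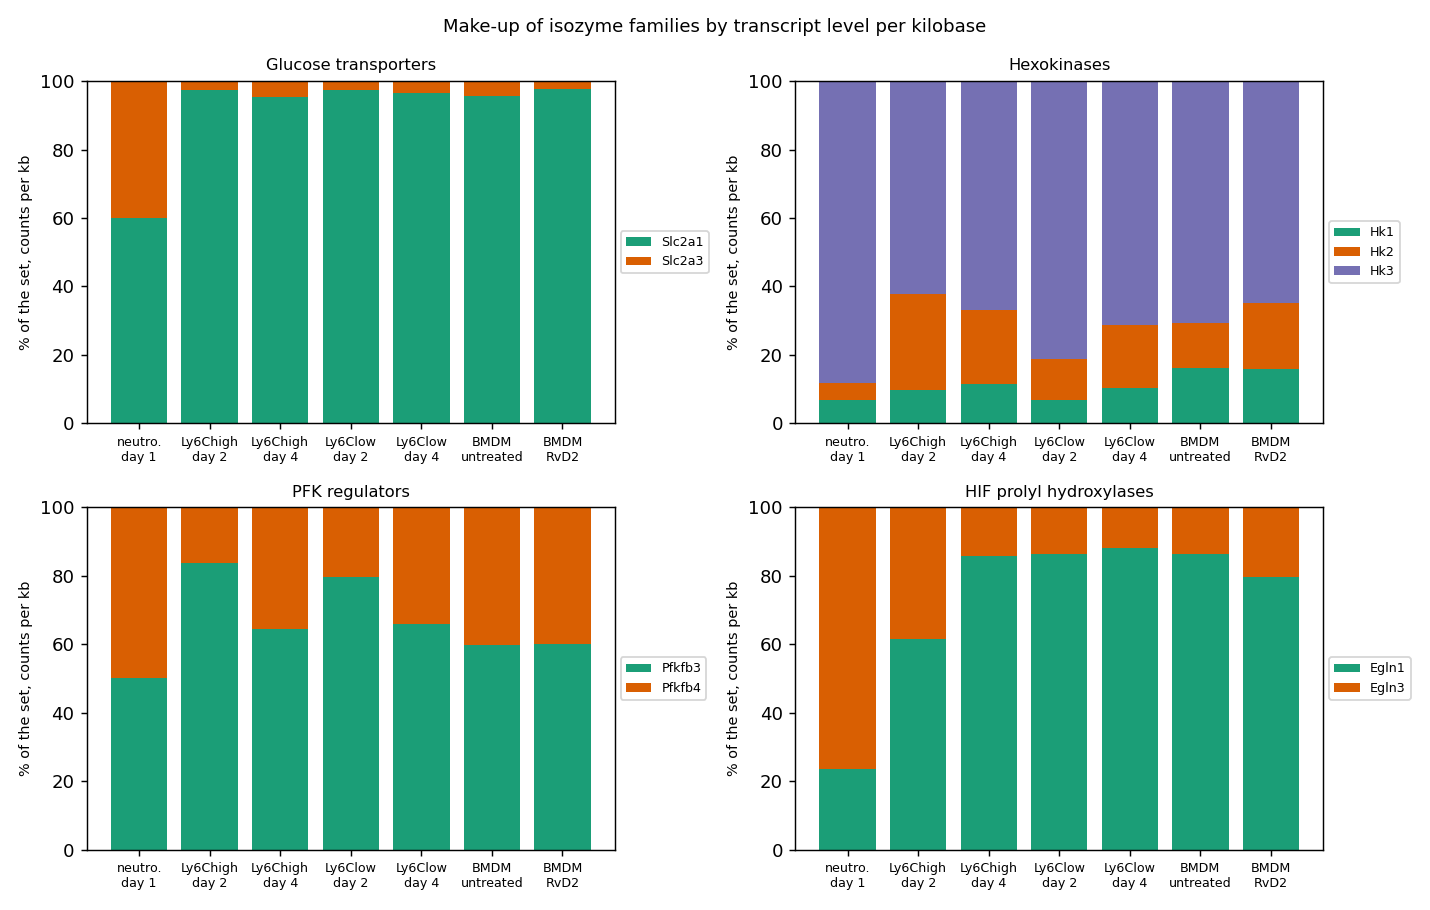
Share of each gene in 4 families by transcript level per kilobase, for the 5 muscle groups (deposited group means) and the BMDM groups (means of 3 libraries). Egln3 takes 76.5% of its pair with Egln1 in neutrophils and 38.5% in Ly6Chigh cells at day 2. Hk2 takes 13.0% of its set with Hk1 and Hk3 in untreated and 19.3% in RvD2-treated BMDM.

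In BMDM, 6 of the 33 genes were higher with RvD2 by limma with Benjamini-Hochberg adjustment over the 15239 genes tested: Ankrd37, Egln3, Slc2a1, Hk2, Ero1l and Hif1a. The background was 0.794% of genes higher and 1.06% lower. None of the 33 was lower (0), with 1, Hk3, below at an unadjusted p under 0.05, and 15 were higher at that unadjusted level. The share of all genes at the unadjusted level was not counted, so the backgrounds above do not apply to those unadjusted counts. The median log2 difference was 0.13 over the 33 and -0.003 over all genes, and 26 were above 0. The 3 RvD2 libraries lay above all 3 untreated libraries for 19 of the genes, where 9.29% of all genes did so, and below them for 2, where 11.7% did. Nothing in the labels says that the libraries came from separate cultures or animals, and the spread behind each p-value may be technical.

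Ankrd37 had values of 4.37, 4.18 and 4.27 in the untreated and 5.97, 5.91 and 5.90 in the RvD2 libraries. The groups did not overlap, and the difference was 1.66 ± 0.16 (log2, SE, 3 libraries a group; limma adjusted p = 0.00324), a 3.15-fold rise. Lrp2bp, which overlaps Ankrd37, stood at 0.87, 2.41 and 2.30 in the untreated and 3.51, 3.95 and 3.55 in the RvD2 libraries, and Ufsp2 between 8.81 and 8.98. Slc2a1 stood at 10.38, 10.60 and 10.47 against 11.23, 11.19 and 11.16 with RvD2, a rise of 0.71 ± 0.07 (SE; limma adjusted p = 0.00324). The lowest RvD2 value of this carrier lay above the highest untreated one. Slc2a3 stood at 6.92, 6.65 and 7.43 against 6.98, 6.67 and 6.99, and the groups overlapped, with a 95% interval of the difference from -0.56 to 0.33.

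Hk2 stood at 9.93, 9.83 and 9.77 in the untreated and 10.40, 10.32 and 10.36 in the RvD2 libraries, a rise of 0.51 ± 0.06 (SE; limma adjusted p = 0.00734). Its share of the 3 hexokinases was 13.0% ± 1.42 (SD, n = 3) in untreated and 19.3% ± 0.336 (SD, n = 3) in RvD2-treated cells. Hk3 stood at 11.49, 11.62 and 11.68 against 11.45, 11.33 and 11.42, a difference of -0.20 that missed the threshold (limma adjusted p = 0.178). Hk1 differed by -0.10, with a 95% interval from -0.25 to 0.05.

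The enzymes of lower glycolysis did not pass the test, and their intervals were narrow. The log2 difference was 0.03 for Pgk1 (95% interval -0.08 to 0.14), -0.06 for Pkm (-0.20 to 0.07), 0.07 for Pgam1 (-0.04 to 0.18), 0.04 for Gapdh (-0.09 to 0.17) and 0.0005 for Eno1 (-0.11 to 0.11). Ldha differed by 0.07 (-0.04 to 0.19), Tpi1 by 0.10 (-0.01 to 0.21) and Aldoa by 0.08 (-0.05 to 0.21). The bound farthest from 0 among these 8 intervals was 0.21, against a lower bound of 0.56 for Slc2a1.

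Egln3 stood at 6.75, 6.84 and 7.02 in the untreated and 7.56, 7.72 and 7.92 in the RvD2 libraries, a rise of 0.86 ± 0.12 (SE; limma adjusted p = 0.0119). The share of Egln3 in its pair with Egln1 was 13.5% ± 1.36 (SD, n = 3) in untreated and 20.2% ± 2.23 (SD, n = 3) in treated cells. Hif1a stood at 11.26, 11.17 and 11.19 against 11.53, 11.48 and 11.61, a rise of 0.33 ± 0.06 (SE; limma adjusted p = 0.0231). The RvD2 libraries lay above the untreated ones for both. Ero1l stood at 10.20, 10.09 and 10.07 against 10.43, 10.53 and 10.52, a rise of 0.38 ± 0.06 (SE; limma adjusted p = 0.0195). Egln1 differed by 0.17 and did not pass (limma adjusted p = 0.162).

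Leaving out each library in turn kept Ankrd37, Slc2a1 and Hk2 past the threshold every time (6 of 6). Egln3 passed in 3 of 6 such fits (adjusted p up to 0.0624), Ero1l in 2 (up to 0.101) and Hif1a in 1 (up to 0.114). The count of higher genes was 6 with all libraries, 3 without untreated replicate 2, without RvD2 replicate 2 or without RvD2 replicate 3, 4 without untreated replicate 3, and 6 without either replicate 1. Without the mean-variance trend the count was 2.

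The genes closest to the threshold without reaching it were Adm (0.56, limma adjusted p = 0.0628), Pfkfb3 (0.35, 0.0635), Ndrg1 (0.57, 0.0892) and Slc16a3 (0.25, 0.0895). Adm stood at 9.02, 8.64 and 8.65 against 9.54, 9.20 and 9.26, and Slc16a3 at 11.11, 11.07 and 11.10 against 11.45, 11.24 and 11.36. Of the others, Pfkfb4 (0.34), Bnip3 (0.25), Pdk1 (0.19), Pfkl (0.19), Egln1, Higd1a (0.14), P4ha1 (0.13), P4ha2 (0.12) and Pfkp (0.05) were above 0 and Gpi1 (-0.05), Aldoc (-0.06), Car9 (-0.13) and Slc2a3 below. The 7 fibroblast markers summed to 39299 to 45865 normalised counts in untreated and 34948 to 55006 in RvD2 libraries, with the lowest and the highest in RvD2 replicates 2 and 1, where P4ha2 was also lowest and highest (9.79 and 10.29).

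Further hypoxia genes rose with RvD2 as well. Of 112 other pathway genes tested 9 were higher by limma and 0 lower, against 0.794% and 1.06% of all genes. At an unadjusted p under 0.05, 8 of the 112 were lower, a count with no share over all genes beside it. Among the 9 that passed, the 6 largest differences were those of Hilpda (1.21), Mxi1, a MYC antagonist (1.02), and Vegfa (0.95). Ak4, a mitochondrial adenylate kinase (0.86), Narf (0.73) and Vhl, which marks HIF for destruction (0.45), followed. Vegfa stood at 11.59, 11.66 and 11.51 against 12.49, 12.49 and 12.63, and the groups did not overlap. The 9 comprise 8 of the 46 further hypoxia targets and 1 of the 15 HIF regulators, and none came from the glycolysis, pentose phosphate, pyruvate entry or glycogen lists. None of the 32 respiratory chain genes passed in either direction.

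**Figure D5:**
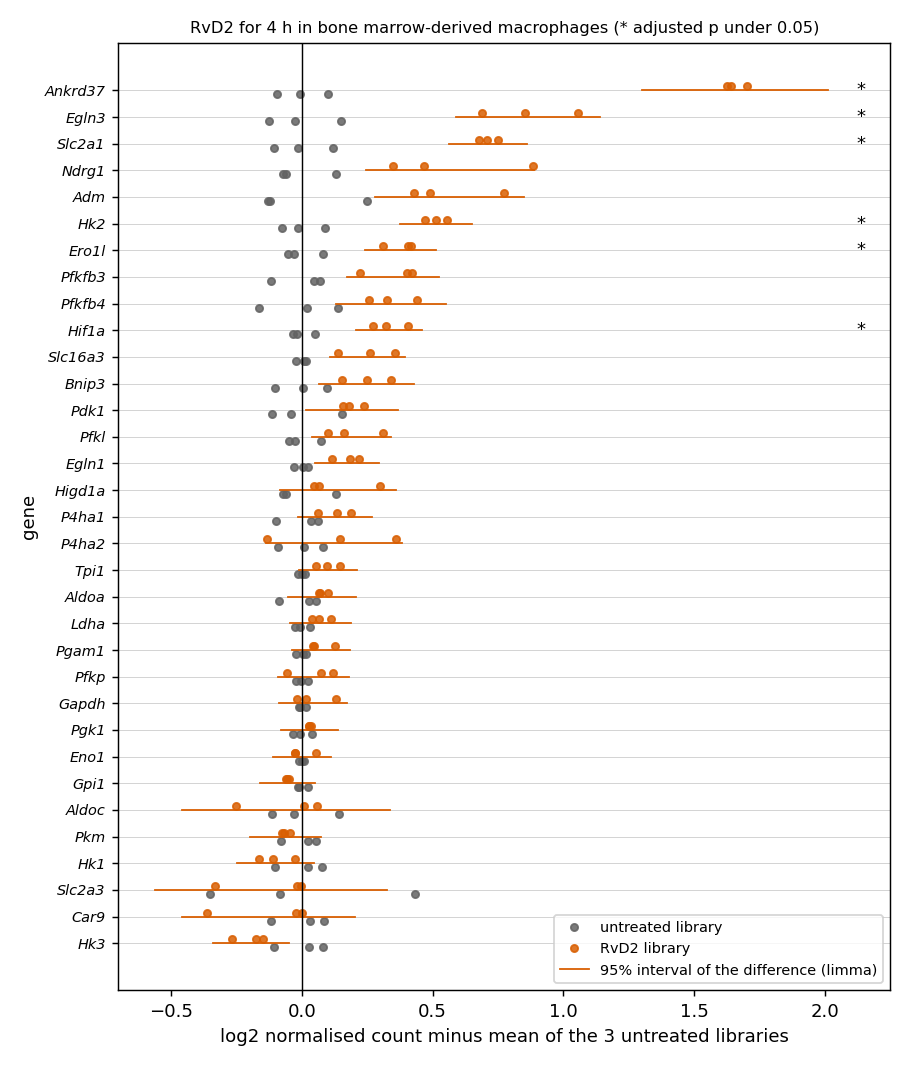
Log2 normalised counts of the 33 genes in each BMDM library, as the distance from the mean of the 3 untreated libraries (grey untreated, orange RvD2), with the 95% interval of the limma difference as a line and a star at adjusted p under 0.05. Ankrd37 stands apart at 1.66, and the lower glycolysis enzymes Pgk1, Eno1, Gapdh and Pkm lie around 0.

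The muscle and BMDM tables share no sample, so their calls can be set side by side. All 6 genes higher with RvD2 in BMDM (Slc2a1, Hk2, Hif1a, Egln3, Ero1l and Ankrd37) were among those called lower over time in Ly6Chigh cells. That is 100% of the first list and 35.3% of the second. Such a call was common in this set, at 17 of 30 genes, so shared genes are likely whatever the link. Among the 6 of 31 called lower in Ly6Clow than in Ly6Chigh cells at day 2, Slc2a1, Egln3, Ero1l and Ankrd37 were shared, 66.7% of each list. The 5 lower glycolysis enzymes were called lower over time in muscle and differed by 0.07 or less in size in BMDM. No muscle cell of these tables was given RvD2, and the overlap was not tested.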

How the data were processed

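Poly-A RNA was sequenced from TruSeq libraries on an Illumina HiSeq, per the labels' protocols. TopHat2 2.0.7, DESeq and mm10 are named, per the submitters' processing notes, and a gene annotation was not given in the sources used here. Both deposited tables hold log2 normalised counts, with values under 1 listed at 0, a unit inferred from the values, where the planned tests had assumed another; the 5 muscle columns are the authors' group means and 2 of their cells are missing. The 6 samples of day 1 Ly6Chigh macrophages and blood monocytes were not analysed here. Muscle groups were compared as log2 ratios of (normalised count + 10). BMDM genes with a mean of at least 10 normalised counts were tested with limma 3.58.1 in R 4.3.3, with a trend, two-sided, at an adjusted p of 0.05, after a check on simulated data. Low values were whole multiples of 1 read (within 0.02) in 43.1 to 56.3% of cases, so no count test was run, and depth describes counting error alone. Coordinates come from GENCODE M21 (GRCm38), which held 95.3% of the identifiers. Near-identical copies were found with BLAST+ 2.17.0. The members and lists were chosen with earlier results of these data known. All 33 members are named; levels are given for members called in a macrophage comparison or past the threshold in BMDM, and other pathway genes only if called, at most 6 a comparison by size, plus Vegfa.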

Additional observations from a re-analysis of the deposited data

How the results depend on the processing

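Of the 110 alternative counts of genes called, 88 stayed within 1.5 times the main count. For the muscle counts that follow, the number over all genes stands in brackets. At 1.5-fold in place of 2-fold, the count lower in Ly6Clow cells was 12 (1360) at day 2 and 4 (1123) at day 4, the count higher at day 2 was 3 (1642), the counts over time were 2 (2076) higher in Ly6Chigh and 1 (1805) higher and 14 (1471) lower in Ly6Clow cells, and 3 (4341) were lower in neutrophils. With 50 added, 0 (371) were higher at day 2 and 1 (343) lower at day 4. With no minimum level, 2 (861) were higher at day 2, 1 (1871) higher over time in Ly6Chigh cells and 2 (4356) lower in neutrophils; with a minimum of 200, the values were 0 (326) higher at day 2, 1 (239) lower at day 4 and 0 (2140) lower in neutrophils. Equal totals gave 7 (1684) higher and 9 (6042) lower in neutrophils, and 15 (369) lower over time in Ly6Chigh cells, where Aldoa and Egln1 were lost. In BMDM, 2 genes were higher without the trend, and leaving out 1 library gave 3 to 6. The replicate block gave 12 higher (492 and 574 of all genes higher and lower, against 121 and 162 without it). Replicate numbers do not pair the libraries by the labels, so the block is given here alone. Deviations of same-numbered libraries correlated at 0.29, 0.02 and 0.05, and not every library correlated best with its own number. Neutrophil marker sums rose from replicate 1 to 3 in untreated (2542, 3852 and 7775) and RvD2 libraries (2609, 3552 and 5072). Macrophage, fibroblast, endothelial and T and NK cell marker sums also kept their replicate order in both groups. The T and NK cell sums were low, at 4.23 to 11.4. Dendritic, skeletal muscle, B cell and erythroid marker sums did not keep it, with B cell sums up to 3.05 and erythroid sums up to 4.18. Whether the libraries are paired cannot be told from these values. Counts over all genes also fell, to 22 higher and 27 lower without the trend, 53 and 84 without a filter, and as low as 32 and 47 with 1 library left out. Signs reversed, all far from the threshold, when 1 library was left out for Slc2a3 (-0.29 to 0.0988), Aldoc (-0.12 to 0.0343), Gapdh (-0.0006 to 0.0735) and Eno1 (-0.0259 to 0.0138), and for Eno1 under quantile normalisation (-0.0105). The cause was not tested. The muscle columns are means, so no library could be left out and no paired analysis was possible there, and depth is unknown.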
